A study of Mus musculus with 24 samples.

Results

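The response to stress of the endoplasmic reticulum (ER) in the mouse hypothalamus was followed through 10 genes, namely Hspa5, Hsp90b1, Pdia4, Sdf2l1, Manf, Ppib, Herpud1, Xbp1, Atf4 and Ddit3, out of 55471 genes counted. They were taken by symbol, with earlier results of these data known. They mapped to 11 of the rows, because Ddit3 stands for a pair of Ensembl genes, of which the shorter (ENSMUSG00000116429, 105 bases, inside the other on the same strand) had 0 counts in all libraries. The row with counts, ENSMUSG00000025408, was used. All 10 were among the 18992 genes that passed the filter on low counts.

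The hypothalami came from male C57BL/6J mice aged 18 weeks, chow-fed and fitted with a gastric catheter. ExpOF mice received a sucrose-enriched liquid diet of 2.3 kcal/mL through the catheter, raised gradually to 150% of their energy need, for 23 h a day over 14 days, and controls received sterile water at the same rates. The d14 groups were killed at the end of the infusion, and the d14+3 groups after 3 further days in which all mice were infused with water. Each of the 4 groups had 6 mice, 3 killed in July and 3 in September. RNA was extracted in 2 rounds, replicates 1 to 3 of each group in round 1 and replicates 4 to 6 in round 2. Diet was thus balanced over cohorts and rounds among all mice, whereas the day of killing and the time point cannot be told apart. In the tests Control d14 had 3 July and 2 September libraries. Whole hypothalamus was used, so that fewer cells of a type and less RNA per cell cannot be told apart.

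The libraries held 8928182 to 34848437 counts. Replicate 4 of Control d14 was left out of the tests. The labels do not say which control the study left out, but the means of the other 5 matched its table of mean counts and no other choice did. It stood apart, with summed choroid plexus markers at 4490 CPM (counts scaled to library size) against 37.3 to 43.6 CPM in 4 of the other Control d14 libraries. The fifth, replicate 5, held 3039 CPM of these markers, and 1 library of ExpOF d14+3, replicate 4, held 1299 CPM. Of the 16 hypothalamic markers none was at 0 throughout a group, but their levels differed. From d14 to d14+3 all 16 were lower in controls (median log2 fold change -0.39 against -0.01 over all genes tested). In ExpOF mice 15 of 16 were lower (-0.33 against 0.00). Between diets 13 were lower in ExpOF mice at d14 (-0.16 against -0.02) and 10 at d14+3 (-0.09 against 0.01). The part of tissue content or dissection in the values of the 10 genes was not tested.

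The ER folds secreted and membrane proteins. When unfolded protein accumulates there, the sensors IRE1 (Ern1), PERK (Eif2ak3) and ATF6 start the unfolded protein response (UPR). ATF6 and spliced XBP1 switch on chaperones, and PERK, through phosphorylation of eIF2-alpha, favours translation of ATF4, which in turn drives Ddit3 (CHOP) and amino acid genes. In the hypothalamus this response is studied for its links with leptin signalling and overnutrition.

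The promoters of several of these genes hold an ER stress response element, read by ATF6 and XBP1 together with the factor NF-Y. Windows of 300 bases around the RefSeq start (GRCm38.p6, 250 bases before it and 50 after) were at hand for 9 of the 10 genes, all but Manf. They are shown for the 3 genes with a match, since such elements are known from the promoters of ER chaperone genes. The element, CCAAT and CCACG with 9 bases of any kind between them, on either strand, lay in 2 of the 9 windows, those of Hspa5 and Hsp90b1, and in 0.119% of all 32851 windows. Its variant, ATTGG and CCACG with 1 base between them, lay in the window of Herpud1 and in 0.0365% of all windows, and the C/EBP-ATF element TTGCATCA, the kind of site that ATF4 binds, in that of Herpud1 and in 0.895% of all. The letters TGACGTGG were in none of the 9 windows and in 0.676% of all. These are matches of letters and not measured sites. The stretches run 5′ to 3′ on the strand of the gene and keep the matches in capitals. That of Hspa5 is kept short because it lies in the 5′ untranslated region of a GENCODE transcript.
Hspa5 (chr2:34772020-34772048, plus strand): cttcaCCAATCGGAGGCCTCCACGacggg
Hsp90b1 (chr10:86705513-86705676, minus strand): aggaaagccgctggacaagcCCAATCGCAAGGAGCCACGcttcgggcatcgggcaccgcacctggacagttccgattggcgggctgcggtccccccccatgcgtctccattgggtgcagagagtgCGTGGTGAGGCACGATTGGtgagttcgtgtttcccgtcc
Herpud1 (chr8:94386297-94386407, plus strand): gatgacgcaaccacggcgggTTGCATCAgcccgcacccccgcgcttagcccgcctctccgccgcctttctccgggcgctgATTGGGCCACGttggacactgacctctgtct

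The levels of the 10 genes were first set in order per length, as RPKM, the CPM divided by gene length, over the 23 libraries. Positions are given on mm10 as in the deposited table. The ER chaperones Hsp90b1 (GRP94, chr10:86690209-86705509, minus strand) and Hspa5 (BiP, chr2:34771970-34776531, plus strand) were highest, at 132 ± 13.0 and 113 ± 13.2 RPKM (SD, n = 23), above 98.9% and 98.6% of all genes tested. Atf4 (chr15:80255184-80257541, plus strand) followed at 50.2 ± 7.46 RPKM and Xbp1 (chr11:5520659-5525893, plus strand) at 33.3 ± 2.7 RPKM. Herpud1, a membrane protein of ER-associated degradation (chr8:94386438-94395364, plus strand), stood at 32.6 ± 2.41 RPKM. Next came the disulfide isomerase Pdia4 (chr6:47796141-47813430, minus strand) at 22.6 ± 2.59 RPKM and the cyclophilin Ppib, a prolyl isomerase of the ER (chr9:66060222-66066623, plus strand), at 21.1 ± 1.42 RPKM. Ddit3 (chr10:127290774-127296065, plus strand) had 13.6 ± 2.3 RPKM and the secreted ER protein Manf (chr9:106838312-106891872, minus strand) 12.4 ± 1.68 RPKM. The chaperone partner Sdf2l1 (chr16:17130138-17132383, minus strand) was lowest at 8.74 ± 2.18 RPKM, above 70.3% of all genes. The order of 6 of the 9 neighbouring pairs held in all 23 libraries. It did not hold for Xbp1 over Herpud1 (15 of 23), Pdia4 over Ppib (19 of 23) and Ddit3 over Manf (19 of 23). The ranges of neighbours were apart only between Hspa5 and Atf4 and between Ppib and Ddit3. The order also depends on the deposited gene lengths, such as 3524 bases for Manf and 3305 bases for Ppib. Without division by length, Manf (mean 43.7 CPM) was above Ddit3 (23.2 CPM) and Ppib (69.6 CPM) above Pdia4 (54.1 CPM). The means of the other neighbouring pairs kept their order. Manf overlaps 4 annotated genes, among them the coding genes Rbm15b on its own strand and Dcaf1 on the opposite one. Hsp90b1 overlaps 3, Pdia4 1 and Herpud1 1. A part of the reads of these genes may therefore be assigned uncertainly.

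**Figure D1:**
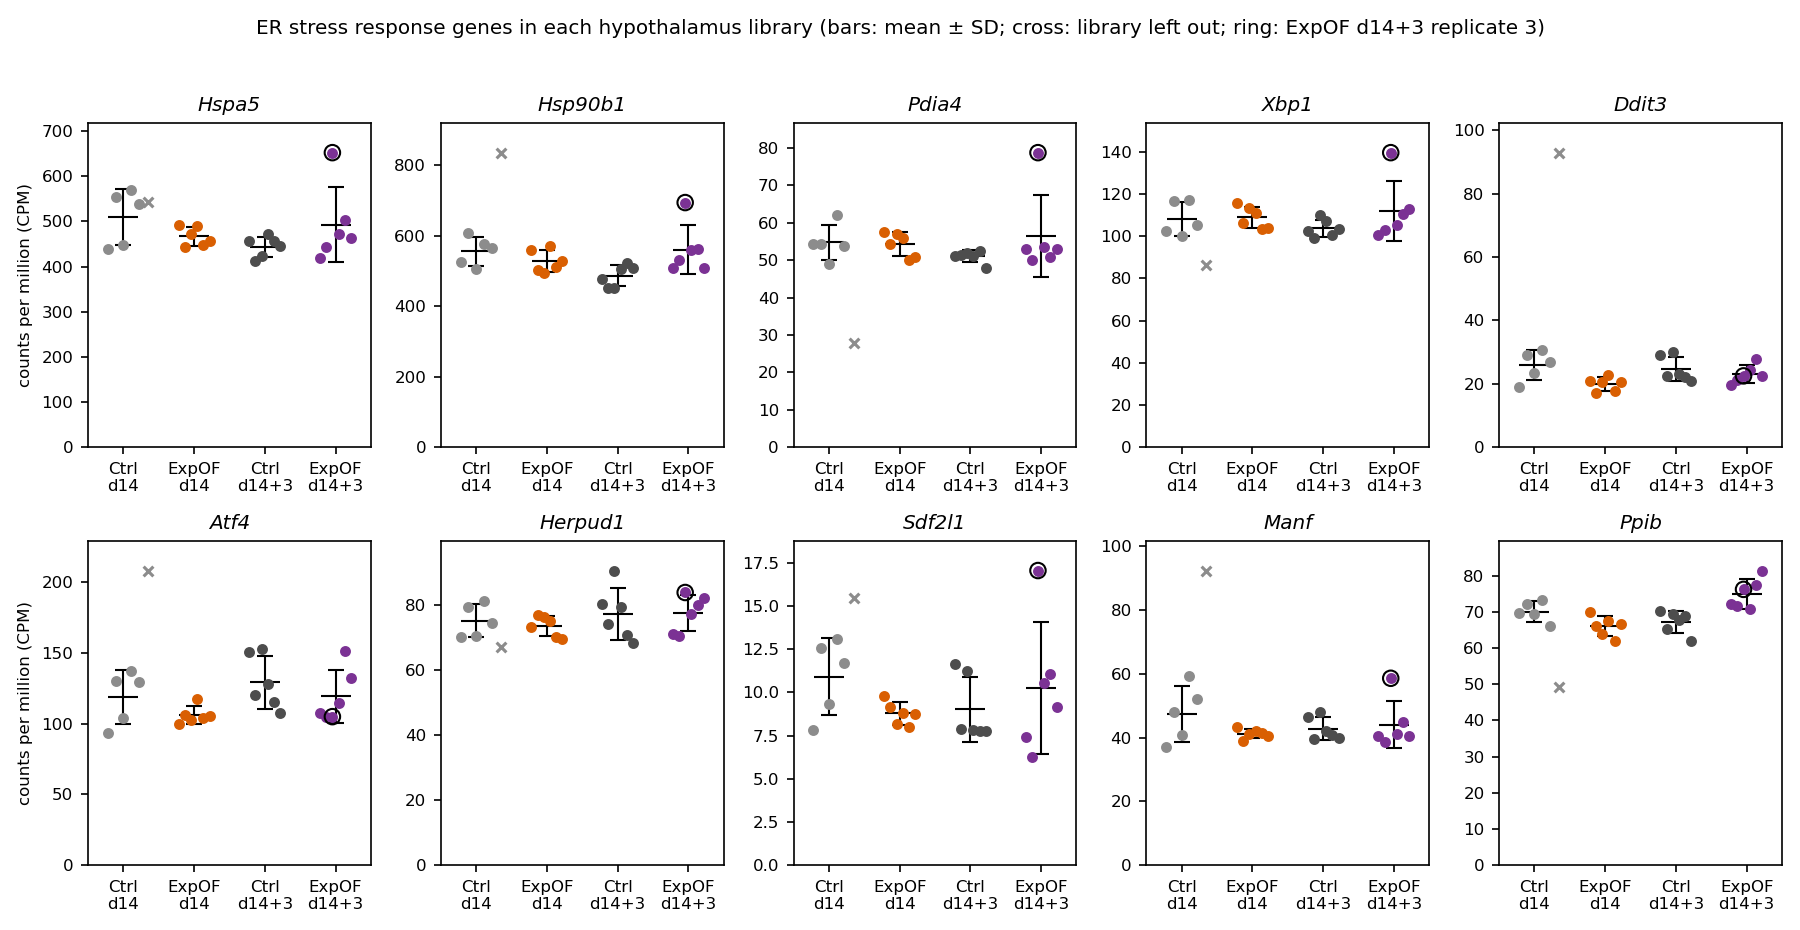
CPM of each gene (vertical axis, from 0) in each library of the 4 groups, with the mean and SD as bars; the cross is the Control d14 library left out and the ring is ExpOF d14+3 replicate 3. Ppib is the gene whose ExpOF d14+3 libraries (70.9 to 81.5 CPM) all lie above Control d14+3 (62.1 to 70.2 CPM), and the ringed library is the highest of its group for Hspa5, Hsp90b1, Pdia4, Xbp1, Herpud1, Sdf2l1 and Manf.

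The first comparison asked whether 14 days of overfeeding had moved these genes by its end. None of the 10 passed the test at d14 (adjusted p under 0.05, edgeR quasi-likelihood test with Benjamini-Hochberg adjustment over all genes tested), against 1 of the 18992 genes, or 0.00527%. DESeq2 also called 0 of the 10, and 177 genes in all. At an unadjusted p under 0.05, 1 of the 10 was lower and none was higher with either tool, where edgeR had 13.6% of all genes lower and 13.1% higher. Of the 10 log2 fold changes, 9 were below 0, against 53.4% over all genes, with a median of -0.11 against -0.02.

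The gene with the smallest p at d14 was Ddit3, which encodes the transcription factor CHOP, tied to the fate of cells under lasting ER stress. Ddit3 was at 18.9, 29.1, 23.4, 30.7 and 27.0 CPM in Control d14 replicates 1, 2, 3, 5 and 6. In ExpOF d14 Ddit3 ran from 17.2 to 22.7 CPM with a median of 20.5. The groups overlapped through the single control at 18.9 CPM, and the other 4 controls lay above every ExpOF library. Ddit3 was thus at 0.774-fold of control, a log2 fold change of -0.37 (SE 0.12, 95% interval -0.60 to -0.14, adjusted p = 0.135 by edgeR). Without that control, replicate 1, it was -0.46 with an adjusted p of 0.020 by edgeR, the only setting in which a member passed at d14, and 4220 genes passed with it. In that library the anterior pituitary markers summed to 105 CPM, against 1.70 to 40.6 CPM in the other 10 d14 libraries, and their part in the result was not tested. Within the July cohort the log2 fold change of Ddit3 was -0.50 and within September, with 2 controls, -0.23. The second Ddit3 gene and the opposite-strand Gm4189 overlap it, so a part of its reads may be assigned uncertainly.

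Atf4, the factor upstream of Ddit3, was at 93.7, 130, 104, 137 and 129 CPM in the same 5 controls and at 99.5 to 118 CPM (median 105) in ExpOF d14. The groups overlapped, with 3 controls above every ExpOF library and 1 below every one. The log2 fold change of Atf4 was -0.17 (SE 0.11, adjusted p = 0.312 by edgeR). For Xbp1, the factor spliced by IRE1, the values ran from 100 to 117 CPM in control and from 103 to 116 CPM in ExpOF, with a log2 fold change of 0.01 and a 95% interval from -0.13 to 0.14. Counts per gene do not separate spliced from unspliced Xbp1.

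Of the chaperones and folding enzymes, Hspa5 was at 440, 554, 447, 569 and 538 CPM in the 5 controls and at 442 to 492 CPM (median 465) in ExpOF d14. Its 6 ExpOF libraries sat inside the spread of the controls, with a log2 fold change of -0.13 (95% interval -0.30 to 0.04). Hsp90b1 ran from 506 to 607 CPM in control and from 494 to 570 CPM in ExpOF, with a log2 fold change of -0.07 (-0.21 to 0.06). Pdia4 differed by -0.01 (-0.18 to 0.16) and Ppib by -0.09 (-0.18 to 0.01). The intervals of these 4 genes ended within 0.30 of 0 on the log2 scale, that of Hspa5 only just. They come from the SE of the main fit by a normal approximation, slightly narrower than the test implies, and are not adjusted. Over the left-out libraries the log2 fold change of Hspa5 ran from -0.17 to -0.08.

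The intervals were wider for Sdf2l1 and Manf. Sdf2l1, which works with Hspa5, was at 7.83 to 13.1 CPM in control and 8.00 to 9.80 CPM in ExpOF, a log2 fold change of -0.31 (95% interval -0.68 to 0.06). Manf, which also binds Hspa5, ran from 37.1 to 59.1 CPM in control and from 39.0 to 43.3 CPM in ExpOF, a log2 fold change of -0.20 (SE 0.10). Herpud1 differed by -0.03 (-0.16 to 0.10). For all of the genes but Hsp90b1 the highest control was replicate 5, the library with 3039 CPM of choroid plexus markers. Without it the log2 fold change was -0.30 for Ddit3 and -0.11 for Manf, and the part of choroid plexus in them was not tested. With the left-out control, replicate 4, put back, none of the 10 passed, and the log2 fold changes moved most for Ddit3 (-0.87, adjusted p = 0.0633 by edgeR), Manf (-0.40), Atf4 (-0.33), Hsp90b1 (-0.18) and Pdia4 (0.12).

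The second comparison asked how the genes stood 3 days after the end of overfeeding. Again none of the 10 passed the test by edgeR or by DESeq2, and none of all genes tested did by edgeR (0%), while DESeq2 called 43 genes. At an unadjusted p under 0.05, 2 of the 10 were higher and none was lower with either tool, against 2.91% higher and 4.2% lower over all genes by edgeR. The log2 fold change was above 0 for 8 of the 10, against 52.1% of all genes, with a median of 0.13 against 0.01. The 2 below 0 were Ddit3 (-0.10) and Atf4 (-0.12), the factors of the PERK arm.

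Ppib had the smallest p at d14+3. It was at 72.1, 71.8, 76.3, 70.9, 77.5 and 81.5 CPM in ExpOF d14+3 replicates 1 to 6 and at 70.2, 65.4, 69.4, 67.9, 69.0 and 62.1 CPM in Control d14+3. All 6 ExpOF libraries were above all 6 controls, the nearest pair by less than 1 CPM, an arrangement that 23 of 18992 genes had in this direction (0.121%). Ppib was at 1.11-fold of control, a log2 fold change of 0.16 (SE 0.05, 95% interval 0.06 to 0.25, adjusted p = 0.413 by edgeR). It was 0.20 within July, 0.11 within September, 0.15 without replicate 3 and 0.17 without replicate 4, the library with 1299 CPM of choroid plexus markers. The opposite-strand gene Snx22 overlaps Ppib.

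Hsp90b1 was the other gene with an unadjusted p under 0.05. It was at 508, 531, 694, 559, 562 and 509 CPM in ExpOF d14+3 replicates 1 to 6 and at 451 to 523 CPM (median 492) in Control d14+3. Replicates 2 to 5 were above every control and the remaining pair, replicates 1 and 6, lay within the controls, so the groups overlapped. Its log2 fold change was 0.20 (SE 0.07, 95% interval 0.07 to 0.34, adjusted p = 0.483 by edgeR), with 0.23 in July, 0.18 in September and 0.13 without replicate 3. With RIN, the RNA integrity number of the labels, as a covariate, it was 0.27 with an adjusted p of 0.125.

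Replicate 3 of ExpOF d14+3 carried much of the difference for the other chaperones. Hspa5 was at 652 CPM there and at 419 to 504 CPM in the other 5 libraries of the group, against 413 to 472 CPM in control. Pdia4 was at 78.7 CPM there and at 50 to 53.6 CPM in the other 5, against 48.0 to 52.6 CPM in control. Xbp1 was at 140 CPM there against 101 to 113 CPM in the other 5, Sdf2l1 at 17.1 against 6.28 to 11.1 CPM and Manf at 58.6 against 38.6 to 44.9 CPM. In the same library Atf4 was at 105 CPM and Ddit3 at 22.5 CPM, both inside the range of the other 5. With and without that library the log2 fold change was 0.15 and 0.05 for Hspa5, 0.15 and 0.03 for Pdia4, and 0.11 and 0.04 for Xbp1. For Sdf2l1 it was 0.18 and -0.03, and for Manf 0.04 and -0.06. The choroid plexus markers of replicate 3 were at 42.0 CPM and its pituitary markers at 1.55 CPM, both within the range of the Control d14+3 libraries or below it, and its RIN was 9.0.

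**Figure D2:**
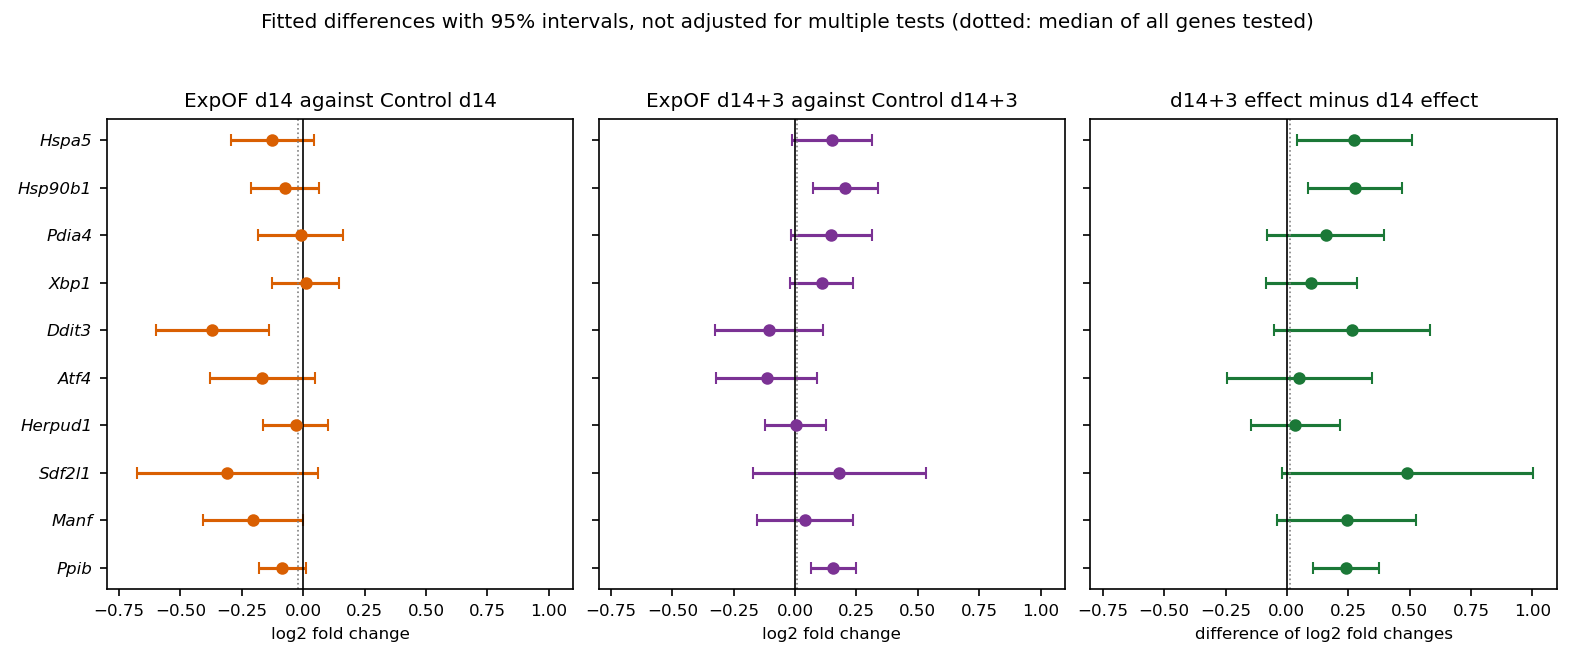
Fitted log2 fold changes (horizontal axis) of the 10 genes with 95% intervals, not adjusted for multiple tests, at d14, at d14+3 and as the difference between them; the dotted line is the median of all genes tested. At d14 9 of 10 points lie below 0, at d14+3 8 of 10 lie above 0, and the difference is above 0 for all 10.

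Whether the effect of overfeeding differed between the days was tested directly, as the d14+3 fold change minus the d14 fold change. No member passed the test by edgeR or DESeq2, and neither did any of the 18992 genes by either tool (0% by edgeR). The difference is made of the same libraries as the comparisons above. All 10 differences were above 0, against 52.6% of all genes, with a median of 0.24 against 0.01, and at an unadjusted p under 0.05 there were 3 higher with either tool, against 2.78% of all genes by edgeR. These were Ppib (0.24, SE 0.07), Hsp90b1 (0.28, SE 0.10) and Hspa5 (0.27, SE 0.12), each with an adjusted p of 0.903 by edgeR. The difference was 0.49 for Sdf2l1, with an interval from -0.02 to 1.00, and 0.03 for Herpud1 and 0.05 for Atf4. Several of the 10 genes vary together from mouse to mouse, so their shared direction does not amount to 10 separate observations.

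The difference had contributions from both sides. In control mice Hspa5 and Hsp90b1 were lower at d14+3 than at d14, with log2 fold changes of -0.20 and -0.19 (adjusted p = 0.332 and 0.224 by edgeR). In ExpOF mice they were higher, with 0.08 and 0.09. No member passed in either of these comparisons across days, against 1.15% of all genes in controls and 0% in ExpOF mice by edgeR. DESeq2 called 0 of the 10 in controls, where it called 540 genes, and 1 in ExpOF mice, Ppib, among 197 genes. All 6 ExpOF d14+3 libraries of Ppib were above the ExpOF d14 libraries, which ran from 62.1 to 70.1 CPM, where 0.632% of genes had that arrangement. The log2 fold change of Ppib across days in ExpOF mice was 0.18 (SE 0.05, adjusted p = 0.114 by edgeR and 0.0203 by DESeq2). At an unadjusted p under 0.05 edgeR had 2 of the 10 lower in controls, against 5.93% of all genes, and 1 of the 10 higher in ExpOF mice, against 5.39%.

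The spread among mice of one group set these genes apart from each other. Ppib varied least, with a within-group SD of 0.07 on the log2 scale, and Sdf2l1 most, with 0.33, against a median of 0.20 over all genes tested and 0.159 over those with a mean of at least 50 counts. Hspa5 had 0.15, near the latter, and Hsp90b1 0.12.

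Some of the chaperones and their partners deviated from their group means together, in part through 1 library. Over the 23 libraries, with log2 CPM centred within each group, Hspa5 followed Hsp90b1 with a Pearson r of 0.89 and a Spearman rho of 0.85. It followed Xbp1 (r = 0.87, rho = 0.77) and Manf (r = 0.84, rho = 0.81), and Sdf2l1 followed Manf (r = 0.86, rho = 0.87). These are descriptions with no test, over libraries that share depth, RNA quality and dissection. The r values were 0.79, 0.72 and 0.78 for the 3 pairs with Hspa5 and 0.81 for the last when the 2 libraries farthest from the median of the first gene were left out. Without replicate 3 of ExpOF d14+3 these 4 pairs were at 0.79, 0.73, 0.74 and 0.78. Other pairs fell further without it. The r of Hsp90b1 went from 0.67 to 0.25 with Pdia4 and from 0.72 to 0.44 with Xbp1. It went from 0.59 to 0.30 with Sdf2l1 and from 0.62 to 0.36 with Manf. Hspa5 with Sdf2l1 went from 0.78 to 0.62.

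For the PERK arm, Atf4 and Ddit3 had r = 0.85 and rho = 0.77, and 0.80 without the 2 farthest libraries. Both also followed Herpud1 (r = 0.71 for Atf4 and 0.69 for Ddit3), Sdf2l1 (0.51 and 0.66) and Manf (0.51 and 0.66). Atf4 had lower values with Hspa5 (0.28), Hsp90b1 (0.01) and Pdia4 (-0.04). Without replicate 3 of ExpOF d14+3, where the chaperones were high and Atf4 was not, the r of Atf4 was 0.64 with Hspa5, 0.22 with Hsp90b1 and 0.29 with Pdia4. In those 22 libraries the r of Atf4 was 0.84 with Sdf2l1 and 0.81 with Manf, and that of Ddit3 was 0.86 and 0.84, beside 0.87 between Atf4 and Ddit3. The r of Hspa5 with Pdia4 went from 0.77 to 0.46.

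**Figure D3:**
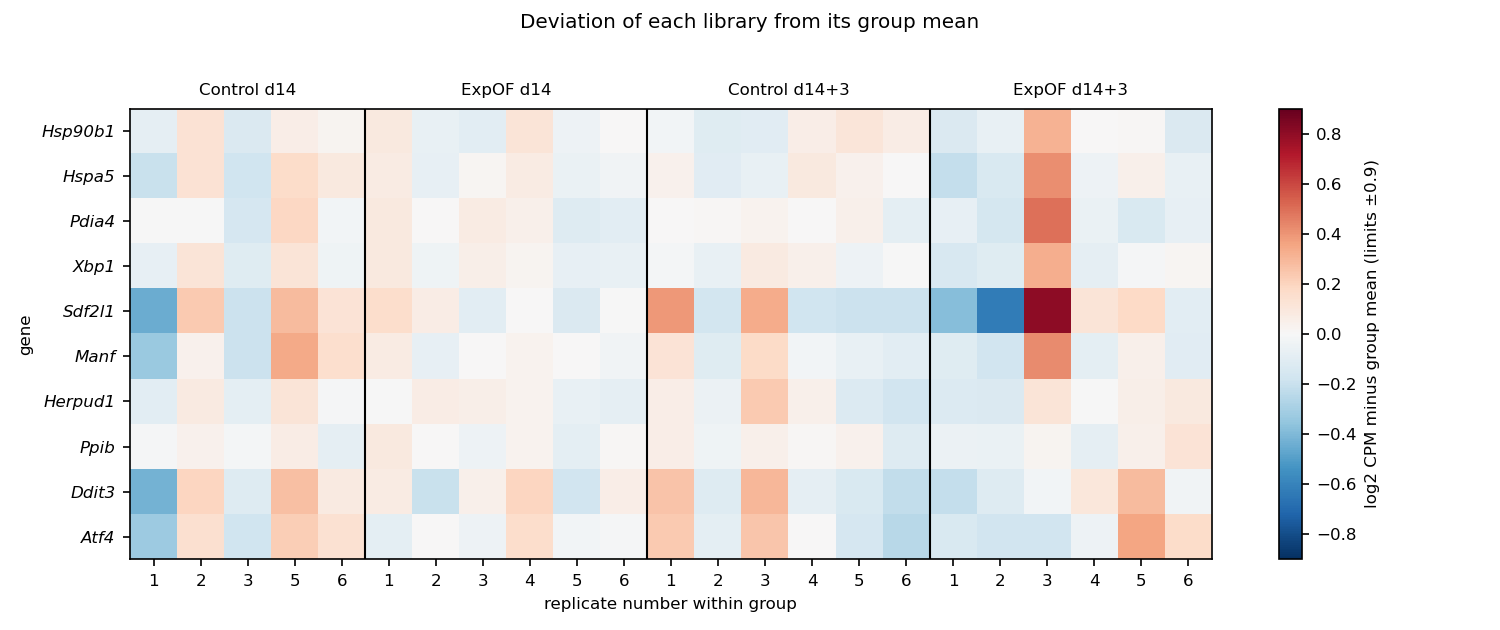
Log2 CPM of each gene minus the mean of its group, by library (columns, by replicate number) and gene (rows), on a colour scale from -0.9 to 0.9. Replicate 3 of ExpOF d14+3 is high for the 6 upper genes, Hsp90b1 to Manf, and at or below its group mean for Ddit3 and Atf4.

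**Figure D4:**
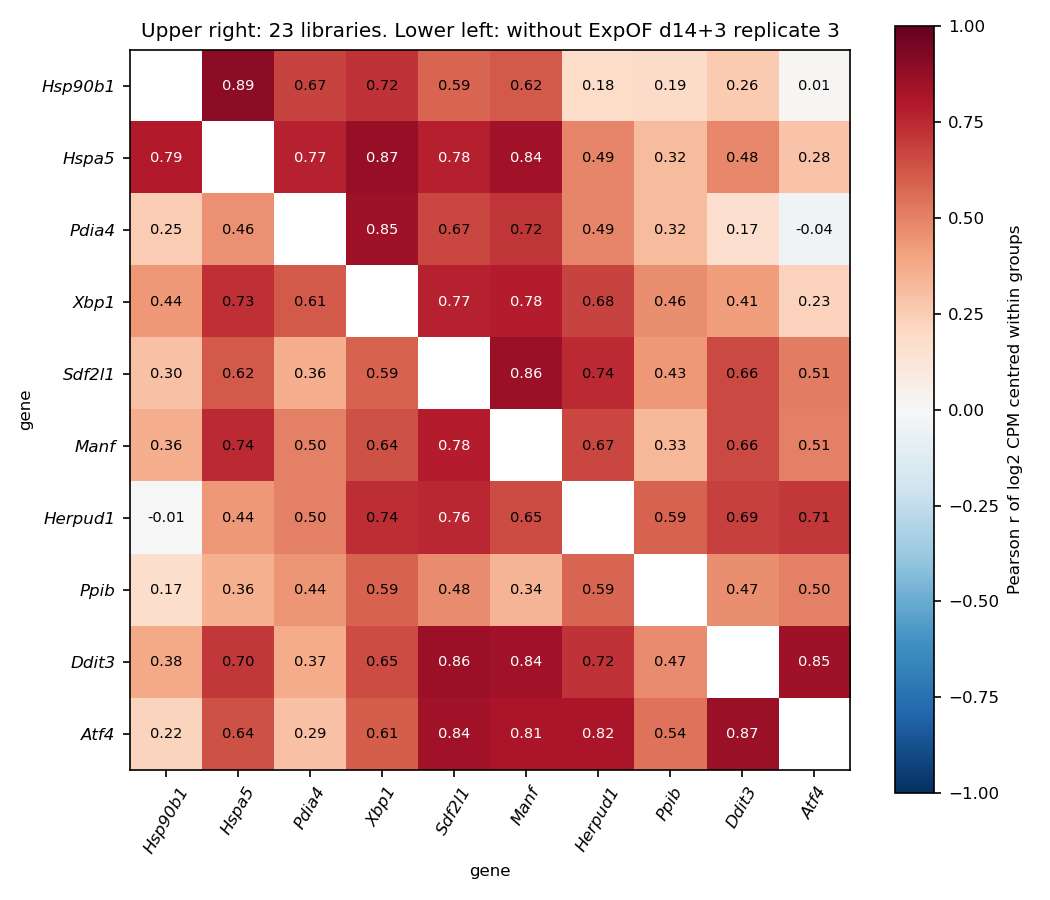
Pearson r between the genes over 23 libraries (upper right) and without ExpOF d14+3 replicate 3 (lower left), from log2 CPM centred within groups. Ddit3 with Atf4 is at 0.85 and 0.87, while Hspa5 with Atf4 goes from 0.28 to 0.64.

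The genes outside the 10 that were most like Hspa5 among 14163 genes with a mean of at least 50 counts were Pdia6 (r = 0.92, rho = 0.89), Calr (r = 0.92, rho = 0.86) and Pdia3 (r = 0.87, rho = 0.87), where the middle 50% of genes lay between -0.22 and 0.27. Pdia6 and Pdia3 encode disulfide isomerases and Calr the lectin chaperone calreticulin. Those most like Atf4 were Atp5b, a subunit of ATP synthase (r = 0.98), the mitochondrial nucleotidase Nt5m (r = 0.98) and Kctd17 (r = 0.97), each over 23 libraries. These values exceed the 0.85 of Atf4 with Ddit3. The spread of r over all genes was computed for Hspa5 only, so the r of Atf4 with Ddit3 is not shown to be particular to that pair. Those most like Ppib were Cog4 (r = 0.81), Ints11 (r = 0.80) and Pi4kb (r = 0.79).

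Several of the genes varied with the cytosolic ribosomal protein genes. How many other genes did so to the same degree was not computed, so these values are not shown to be particular to the 10 genes. For Atf4 and Ddit3 the r with the mean log2 CPM of the 78 ribosomal genes, centred within groups, was 0.76 and 0.74 (rho = 0.69 and 0.68), and it was 0.50 for Manf (rho = 0.62), 0.44 for Sdf2l1 (rho = 0.61) and 0.44 for Herpud1. It was 0.25 for Hspa5, 0.11 for Hsp90b1 and 0.07 for Ppib. Without ExpOF d14+3 replicate 3 it was 0.79 for Manf, 0.75 for both Atf4 and Ddit3, 0.72 for Sdf2l1, 0.56 for Hspa5 and 0.34 for Hsp90b1. The r with RIN was 0.28 for Atf4, 0.25 for Ddit3, -0.31 for Hspa5 and -0.46 for Hsp90b1. RIN was 9.75 ± 0.138 in ExpOF d14 and 9.20 ± 0.860 in Control d14 (SD, n = 6 and 5, p = 0.219, two-sided exact permutation test). It was 9.43 ± 0.450 in ExpOF d14+3 and 8.62 ± 1.09 in Control d14+3 (SD, n = 6 each, p = 0.134, same exact test). In Control d14+3 it was 9.5, 9.3 and 9.9 in extraction round 1 and 7.9, 7.2 and 7.9 in round 2. In ExpOF d14+3 it was 9.5, 9.6 and 9.0 in round 1 and 9.7, 8.8 and 10 in round 2. The part of RNA quality in the differences of the chaperones was not tested beyond the fit with RIN as a covariate, in which Hspa5 at d14+3 was 0.20 with an adjusted p of 0.358 by edgeR.

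The wider pathway was read from 5 lists that held none of the 10 genes, and no listed gene passed the test in either comparison of diets by edgeR. Among 24 further ER chaperones and folding enzymes, the median log2 fold change was -0.10 at d14, with 3 higher and 6 lower at an unadjusted p under 0.05, and 0.05 at d14+3, with none. Over all genes the medians were -0.02 and 0.01, and the shares at that threshold were 13.1% higher and 13.6% lower at d14 and 2.91% higher and 4.2% lower at d14+3. Pdia6 was at -0.14 and 0.12, Pdia3 at -0.11 and 0.11, Calr at -0.10 and 0.06, and Creld2 at -0.23 and 0.13 on the d14 and d14+3 comparisons. P4hb, the beta subunit of prolyl hydroxylase and itself an isomerase, was at -0.15 and 0.01, Hyou1 at -0.03 and 0.06, and Dnajb11 at -0.10 and -0.03. The co-chaperones Dnajb9 (0.17 and 0.09) and Dnajc3 (0.14 and 0.13) and the lectin Canx (0.12 and 0.09) were above 0 on both. In controls 1 gene of this list, the oxidase Ero1lb, rose from d14 to d14+3 with a log2 fold change of 0.29 (SE 0.06, adjusted p = 0.0166 by edgeR), and its groups did not overlap, as was so for 1.08% of genes in that direction.

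Of 14 sensors and signal transducers, 3 were higher and 3 lower at d14 at an unadjusted p under 0.05, and none at d14+3, with medians of 0.00 on both, against 13.1% and 13.6% of all genes at d14. Ern1, which encodes IRE1, was at 0.20 and 0.15, Atf6 at 0.19 and 0.03, and Eif2ak3, which encodes PERK, at -0.03 and 0.00. Ppp1r15a (GADD34), which brings a phosphatase to eIF2-alpha and is induced through ATF4 and CHOP, was at 12.1 CPM in ExpOF d14 and 15.9 CPM in Control d14, a log2 fold change of -0.40 (SE 0.12, adjusted p = 0.135 by edgeR). Its d14 groups did not overlap, as was so for 0.958% of genes in that direction, and at d14+3 it was at -0.12. In the higher direction 1 other gene of this list had d14 groups that did not overlap, against 293 of 18992 genes.

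The 23 ATF4 target genes had a median of -0.15 at d14, with 1 higher and 8 lower at an unadjusted p under 0.05, and -0.02 at d14+3, with 4 lower, against 13.6% and 4.2% of all genes lower on these days. Ddit4, an inhibitor of mTORC1, was at -0.18 and -0.37, the asparagine synthetase Asns at -0.10 and -0.01, Chac1 at -0.15 and 0.02, and Trib3, with about 1 CPM, at -0.33 and -0.56. Of the 21 genes of ER-associated degradation, 3 were higher and 2 lower at d14 and 1 higher and 1 lower at d14+3 at that threshold, against 13.1% higher and 13.6% lower of all genes at d14. Sel1l (0.18 and 0.12) and Selenos (-0.27 and -0.14) lay on opposite sides of 0, and the ligase Syvn1 (-0.10 and 0.04) and Derl1 (-0.03 and 0.00) lay near it. Of the 17 genes of the translocon and signal peptidase, none was higher and 5 were lower at d14, and 2 were lower at d14+3, against 13.6% and 4.2% of all genes lower. Ssr4 was at -0.29 and -0.24 (adjusted p = 0.135 and 0.383 by edgeR), and Sec61b at -0.31 and -0.14.

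The 78 cytosolic ribosomal protein genes had a median of -0.35 at d14 and -0.43 at d14+3, with 68 and 64 lower and none higher at an unadjusted p under 0.05, against 13.6% and 4.2% of all genes lower. At d14 all 78 were below 0, and at d14+3 77 were. Atf4 and Ddit3 were below 0 on both days like this list. Hspa5, Hsp90b1, Pdia4, Ppib, Sdf2l1, Manf and Herpud1 were below 0 at d14 and above 0 at d14+3, and Xbp1 was above 0 on both. Several of these values lay near 0, among them Pdia4 (-0.01) and Xbp1 (0.01) at d14 and Herpud1 (0.0027) and Manf (0.04) at d14+3. Sdf2l1, Manf and Herpud1 had the signs of Hspa5, with r of 0.44, 0.50 and 0.44 with the ribosomal mean. None of these differences of the 10 genes passed the adjusted test, and the part of the ribosomal shift in them was not tested.

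**Figure D5:**
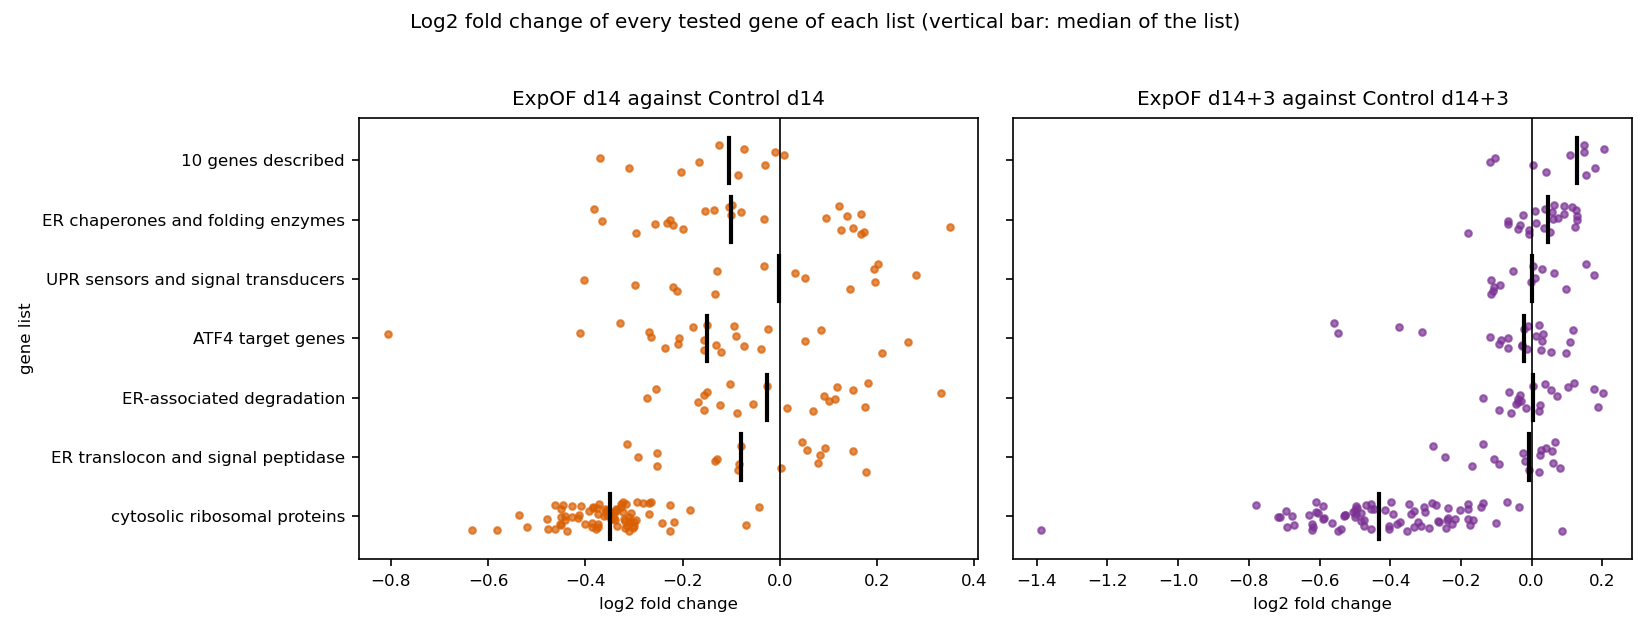
Log2 fold change of every tested gene (points) of the 10 genes described, 5 pathway lists and the cytosolic ribosomal proteins at d14 and d14+3, with the median of each list as a vertical bar. The medians of the pathway lists lie between -0.15 and 0.00 at d14 and between -0.02 and 0.05 at d14+3, and those of the ribosomal proteins at -0.35 and -0.43.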

How the data were processed

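Poly-A RNA of 24 hypothalami was sequenced as stranded libraries. Per the labels and methods the authors aligned reads to mm10 with STAR and used featureCounts 1.6.4, and they deposited raw counts per gene with gene positions and lengths. Whether reads were assigned by strand is not given in the sources used here. Symbols came from GENCODE vM21 (55144 genes). Tests used edgeR 4.0.16 under R 4.3.3 on 23 libraries: TMM scaling, a filter on low counts (filterByExpr, 10 per library and 15 in total), 1 model for the 4 groups with robust estimation, quasi-likelihood tests, and Benjamini-Hochberg adjustment over 18992 genes at 0.05. CPM and RPKM used TMM-scaled depths, and log2 CPM a prior count of 2. Each library is 1 mouse. The lowest chi-square per degree of freedom between libraries of a group was 2.95, so none was a duplicate. Alternatives were DESeq2 1.42.0, other scaling, filters, samples and covariates, a length trend, a replicate block, and leaving out each library. The fits were tested on simulated data. The genes named are the 10 members, 24 pathway genes, any pathway gene past the threshold, and the 3 genes most like Hspa5, Atf4 and Ppib. The members and lists were chosen with earlier results of these data known. Sdf2l1 had the fewest counts, 71 to 407 per library, and so the largest counting error.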

Additional observations from a re-analysis of the deposited data

Results flagged for a closer look

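In 5 of the 40 sets of values (10 genes in 4 groups, the left-out library aside) 1 library lay apart from the rest by Dixon's criterion. Chance alone gives about 1 in 20 for a single set. The 40 sets share libraries and several genes vary together, so the 5 cannot be set against that rate. Of the 5, 4 were the same mouse, replicate 3 of ExpOF d14+3, at 694 CPM for Hsp90b1, 78.7 CPM for Pdia4, 140 CPM for Xbp1 and 58.6 CPM for Manf. The fifth was replicate 6 of Control d14+3, at 48.0 CPM for Pdia4, where its group was otherwise at 51.0 to 52.6 CPM.

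Replicate 4 of Control d14, which was not in the comparisons, held more than every other control library of both days for 5 of the 10 genes. It was at 835 CPM for Hsp90b1, 93.0 CPM for Ddit3, 208 CPM for Atf4, 15.5 CPM for Sdf2l1 and 92.4 CPM for Manf. Pdia4 (27.9 CPM), Xbp1 (86.2 CPM), Herpud1 (67.2 CPM) and Ppib (49.3 CPM) were below every other library there. Its choroid plexus markers summed to 4490 CPM, its ribosomal protein genes to 45451 CPM (8272 to 14553 CPM in the other Control d14 libraries) and its hypothalamic markers to 2741 CPM (826 to 1451 CPM). Their part in these values was not tested. Replicate 5 of Control d14, with 3039 CPM of choroid plexus markers, was at 30.7 CPM for Ddit3 and 137 CPM for Atf4.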

How the results depend on the processing

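Under all alternatives run, no member passed the adjusted threshold in a comparison of diets or in their difference, except Ddit3 at d14 without Control d14 replicate 1. The number of members called at d14 was thus 0 to 1 over the left-out libraries, and across days in ExpOF mice DESeq2 called 1 member, Ppib. Without that control P4hb, Atf6, Ppp1r15a, Sel1l, Selenos and Ssr4 also passed at d14. There 4220 genes passed in all, so that passing does not by itself set these genes apart. Ssr4 passed at d14 by DESeq2, among 177 genes. Replicate numbers did not pair the mice, with correlations of same-numbered deviations from -0.40 to 0.35 and not every library closest to its own number. The replicate block gave 33 genes across days in controls, 1 gene at d14 and 0 in the other comparisons, with 0 members called. Depth limited Sdf2l1 most. The causes of the changes below were not tested.

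At d14 the 1 gene called was 177 by DESeq2 (102 higher), 2 with only the groups compared, 0 in either cohort alone and 1 to 4220 over the left-out libraries (4220 without Control d14 replicate 1, of which 2313 higher, and 3 without replicate 3). At d14+3 the 0 genes were 43 by DESeq2 (3 higher) and 26 with RIN as a covariate (5 higher). Across days in controls the 218 genes were 540 by DESeq2, 0 with only the groups compared and in either cohort alone, and 24 to 313 over the left-out libraries (24 without replicate 2 and 58 without replicate 3 of Control d14, and 109, 51 and 47 without replicates 1, 2 and 4 of Control d14+3). Across days in ExpOF mice the 0 genes were 197 by DESeq2, 28 with at least 10 counts in every library, 123 with only the groups compared and 78 with cohort and extraction round as covariates. Over the left-out libraries they were 0 to 157 (157 without ExpOF d14+3 replicate 3 and 87 without ExpOF d14 replicate 4).

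Log2 fold changes near 0 turned sign under some settings. With all 24 libraries the sign turned for Pdia4 (0.12), Herpud1 (0.0022), Hyou1 (0.11), Eif2ak3 (0.10) and Derl1 (0.0037) at d14, and for Herpud1 (-0.0040), Eif2ak3 (-0.0015) and Derl1 (-0.0034) at d14+3, and for Herpud1 (-0.0062) in the difference between days. Without the filter on low counts the sign turned for Herpud1 (-0.0024), Eif2ak3 (-4.28e-05) and Derl1 (-0.00097) at d14+3. In the July cohort alone the sign turned for Pdia4 (0.047) at d14, and for P4hb (-0.049), Dnajb11 (0.079) and Chac1 (-0.093) at d14+3. In the September cohort alone the sign turned for Xbp1 (-0.0073) and Derl1 (0.027) at d14, and for Herpud1 (-0.042), Manf (-0.026), Dnajb9 (-0.051), Dnajc3 (-0.013), Eif2ak3 (-0.068), Ppp1r15a (0.049), Asns (0.016) and Derl1 (-0.028) at d14+3, and for Atf4 (-0.013) in the difference between days. With RIN as a covariate the sign turned for Pdia4 (0.024) at d14, and for Herpud1 (-0.025), P4hb (-0.0030), Eif2ak3 (-0.019) and Chac1 (-0.0078) at d14+3. With the trend on gene length removed the sign turned for Pdia4 (0.062), Herpud1 (0.046) and Derl1 (0.0015) at d14, and for Herpud1 (-0.0049) in the difference between days, and for Dnajb11 (0.0020), Eif2ak3 (-0.026), Atf6 (-0.026) and Asns (0.026) at d14+3. Over the left-out libraries the sign was not kept at d14 for Pdia4 (-0.048 to 0.038) and Xbp1 (-0.018 to 0.038). Over the left-out libraries the sign was not kept at d14+3 for Herpud1 (-0.030 to 0.053), Sdf2l1 (-0.026 to 0.29), Manf (-0.060 to 0.077), Calr (-0.0091 to 0.10), P4hb (-0.030 to 0.041), Dnajb9 (-0.013 to 0.15), Dnajb11 (-0.11 to 0.0080), Eif2ak3 (-0.046 to 0.030), Atf6 (-0.0067 to 0.063), Asns (-0.043 to 0.032), Chac1 (-0.060 to 0.090), Syvn1 (-0.0023 to 0.080) and Derl1 (-0.017 to 0.024). Over the left-out libraries the sign was not kept in the difference between days for Atf4 (-0.031 to 0.11) and Herpud1 (-0.0030 to 0.084). The RIN difference at d14 was 0.55 in all, -0.1 in July and 1.5 in September, with 3 ExpOF and 2 control libraries there. The correlations without ExpOF d14+3 replicate 3 were chosen after seeing the data, and that of Pdia4 with Atf4 went from -0.04 to 0.29.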
